A study of Mus musculus with 8 samples.

Results

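The oligoadenylate synthetases Oas1a, Oas1c, Oas1d, Oas1e, Oas1h, Oas2, Oas3, Oasl1 and Oasl2 were followed in mouse oocytes labelled wild-type or Dicer knockout. Members were found by the gene symbol that the platform annotation gives each probe set, whatever its signal. Of 9 members, 8 had a probe set with that symbol alone, out of 18193 genes measured in all. Oas1d was listed only on a probe set that carries the symbols Oas1e and Oas1d together, which is described apart. The arrays came from fully grown oocytes arrested before the first meiotic division, with the nucleus (germinal vesicle) still intact. Each of 8 arrays held RNA of 20 oocytes from 1 female of strain 129/C57BL6, primed with equine chorionic gonadotropin. There were 4 mice of genotype wild-type and 4 of genotype Dicer knockout, and the oocytes of both had been freed of cumulus cells by pipetting. The labels give neither the ages nor the exons deleted, and name no promoter or cell type that drives a deletion.

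Oligoadenylate synthetases bind double-stranded RNA and then join ATP into short 2′-5′ linked oligoadenylates, called 2-5A. These serve as messengers of the antiviral response, and phosphodiesterases remove them. Most of the genes are induced by interferon, but the mouse Oas1 cluster has expanded, and several of its copies, Oas1d among them, are known for expression in growing oocytes. Dicer cuts double-stranded RNA into short interfering RNAs, which mouse oocytes hold in unusual abundance.

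The signals are log2 values per probe set, with array medians between 6.35 and 6.43. Dicer1 read 13.04 to 13.31 on the wild-type arrays and 14.26 to 14.36 on the knockout arrays in its brighter probe set, and 11.39 to 11.79 and 12.11 to 12.38 in the other. The signal was therefore higher in the arrays labelled knockout, and because the deleted exons are not given, neither probe set checks the genotype. The difference between the 3′ and 5′ control probe sets was 1.97 to 2.63 in wild type and 1.95 to 2.29 in knockout for actin, and 2.87 to 3.07 and 2.60 to 2.93 for Gapdh. Of 10 oocyte markers 3 fell and 0 rose (0 also in limma at an unadjusted p under 0.05). Over all genes, each by its brightest probe set, 12.8% fell and 8.18% rose. Mos, a kinase that acts in meiosis, fell from 13.63 to 13.27, the transcription factor Figla from 9.04 to 8.42 and Ooep from 14.19 to 13.95. The zona gene Zp3 read 14.39 and 14.38 in the group means, and the list averaged 13.40 to 13.49 per array in wild type and 13.29 to 13.36 in knockout. As a gauge of background, 20 probe sets of 9 Y-linked genes, which female mice lack, had a median signal of 4.63, a 90th percentile of 5.92 and a highest value of 7.06.

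Oas3 was the only member that passed the test with all arrays and the deposited values, and it was higher in knockout oocytes. The 7 other members with their own probe set did not pass, and 0 of 8 fell, although Oas1h was lower at an unadjusted p under 0.05. No filter on low signals was applied, so all 8 were tested. For comparison, 6.82% of all 45037 probe sets rose and 9.31% fell in the same limma fit (adjusted p under 0.05), and 1 of 8 members is near that background. In 3 of the 8 members the groups did not overlap: the knockout arrays were above the wild-type arrays for Oas3 and below them for Oas1c and Oas1h. Over all probe sets the groups did not overlap in 21.2%, with knockout higher in 9.66% and lower in 11.5%. The median log2 difference over the 8 members was -0.01, against 0.00 over all genes.

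**Figure D1:**
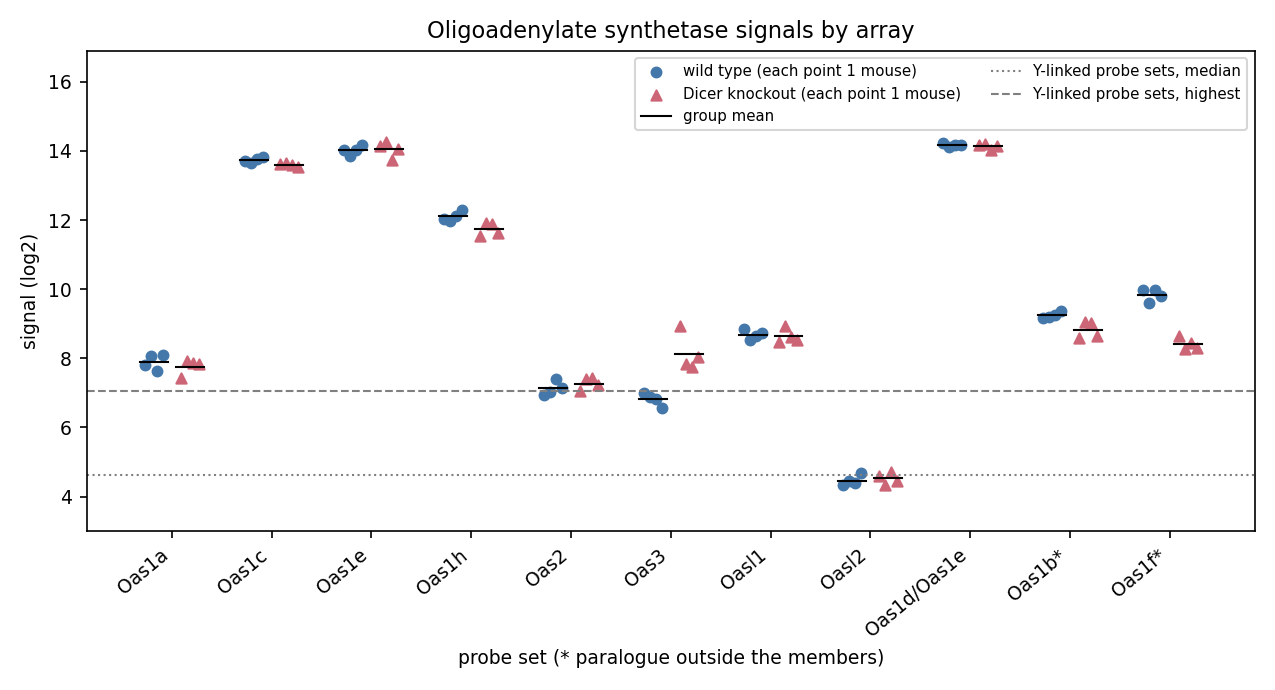
Log2 signal of each oligoadenylate synthetase probe set on the 4 wild-type and 4 Dicer knockout arrays, with group means as bars and the median and highest signal of Y-linked probe sets as lines. The 4 knockout arrays of Oas3 sit between 7.74 and 8.93, above all wild-type arrays. For the shared Oas1d and Oas1e probe set the groups overlap, with 1 knockout array, at 14.04, below all wild-type points.

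Oas3 encodes the longest synthetase, built from repeated synthetase domains. Its signals were 7.00, 6.89, 6.82 and 6.56 on wild-type arrays 1 to 4, and 8.93, 7.84, 7.74 and 8.04 on knockout arrays 1 to 4. The groups did not overlap, and knockout array 1 stood 0.89 above the next knockout array. The mean rose from 6.82 ± 0.188 to 8.14 ± 0.542 (SD, 4 mice in each group), and the log2 difference was 1.32 ± 0.235 (SE, limma adjusted p = 0.00448). That is 2.50-fold, with a 95% interval of 1.73-fold to 3.60-fold. The exact two-sided permutation p was 0.0286, the smallest that 4 against 4 arrays can give. Without knockout array 1 the log2 difference was 1.06 (limma adjusted p = 0.00106). All 4 wild-type values lay below the highest Y-linked signal of 7.06 and all 4 knockout values above it. That highest signal came from 1 probe set of Sry. The next highest Y-linked probe set read 6.43, below all 4 wild-type values of Oas3. Whether the wild-type signal differs from background was not tested. Among the 4 wild-type arrays, array 1 had the highest Oas3 signal, and without it the difference was 1.38.

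Markers of cells that could accompany the oocyte were set beside the rise of Oas3. Of 10 leukocyte markers, Cd68, a lysosomal protein of macrophages, rose from 6.96 ± 0.0903 to 8.12 ± 0.153, and the integrin Itgam rose from 4.48 to 4.88, while 0 fell (also 0 in limma at an unadjusted p under 0.05). Itgam lay near the Y-linked signals, with both means below their 90th percentile of 5.92. Its call ended without knockout array 1, 3 or 4 and without wild-type array 1, 2 or 4 (limma adjusted p 0.0693 to 0.100). With 2 of 10 leukocyte markers called as rising, the share over all genes was 8.18%. The mean level of the 10 leukocyte markers was 5.85 to 6.12 per array in wild type and 6.14 to 6.31 in knockout. This mean includes Cd68, with a log2 difference of 1.16, while the list median was 0.09. The 8 markers that did not pass had log2 differences between -0.04 (Cd3e) and 0.18 (Adgre1). The defining leukocyte marker Ptprc read 3.88 and 3.85, below the Y-linked median. The part of such cells in the Oas3 signal was not tested.

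The sequence upstream of Oas3 is shown because it was the member that rose, and that of Oas1a because its window holds the same kind of interferon element at a gene that did not pass. The windows come from RefSeq (build GRCm38.p6), run from 250 bases before to 50 after the annotated start, and are written 5′ to 3′ on the gene's strand. Of the 12 genes of the family named here, 8 had a window. Capitals mark matches on either strand to GAAANNGAA, a core of the interferon-stimulated response element, or to TTCNNNGAA, the type bound by STAT dimers.
Oas3 promoter, chr5:120777610-120777909, minus strand: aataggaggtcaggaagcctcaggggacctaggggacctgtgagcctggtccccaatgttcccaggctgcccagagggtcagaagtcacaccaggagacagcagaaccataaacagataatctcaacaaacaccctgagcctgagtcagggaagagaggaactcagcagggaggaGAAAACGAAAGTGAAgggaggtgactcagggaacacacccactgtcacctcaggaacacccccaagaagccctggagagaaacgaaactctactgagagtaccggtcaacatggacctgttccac
Oas1a promoter, chr5:120907476-120907775, minus strand: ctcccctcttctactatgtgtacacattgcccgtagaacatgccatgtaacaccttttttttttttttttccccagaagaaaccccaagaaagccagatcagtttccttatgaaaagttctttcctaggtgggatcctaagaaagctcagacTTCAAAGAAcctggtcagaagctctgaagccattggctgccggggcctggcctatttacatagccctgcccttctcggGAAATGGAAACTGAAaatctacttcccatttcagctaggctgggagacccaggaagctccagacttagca
The Oas3 window held 2 overlapping matches, GAAAACGAA and GAAAGTGAA, whose first bases lie at -75 and -69 from the start. The Oas1a window also held 2 overlapping matches, GAAATGGAA at -20 and GAAACTGAA at -14, and the STAT-type match TTCAAAGAA at -98. GAAANNGAA occurred in 4 of the 8 family windows, those of Oas1a, Oas1c, Oas1g and Oas3, and in 8.56% of all 32851 windows. TTCNNNGAA occurred in 1 of the 8, against 8.30%. The motifs were chosen after the values had been seen, and a match describes letters and not binding.

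Oas1h, a copy in the Oas1 cluster, was lower in knockout and narrowly missed the threshold. It read 12.04, 11.98, 12.11 and 12.29 on wild-type arrays 1 to 4 and 11.53, 11.91, 11.90 and 11.63 on knockout arrays 1 to 4. The groups were separated by 0.07, between wild-type array 2 and knockout array 2. The log2 difference was -0.36 ± 0.109 (SE, n = 4 and 4, limma adjusted p = 0.0512), or 1.29-fold lower, with a 95% interval of 1.08-fold to 1.52-fold. Oas1h passed in 7 of 9 other settings, at adjusted p between 0.0329 and 0.0489, and did not pass under cyclic loess or quantile normalisation. It passed without knockout array 2 (adjusted p = 0.0438) and missed the threshold in the 7 other fits that left out an array.

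Oas1c, another copy in the cluster, showed a smaller difference in the same direction. Its signals were 13.70, 13.65, 13.76 and 13.84 on the wild-type arrays and 13.62, 13.64, 13.60 and 13.53 on the knockout arrays. The lowest wild-type array and the highest knockout array were 0.01 apart as rounded, so the groups met without overlapping. The log2 difference of -0.14 ± 0.0703 (SE, n = 4 and 4) did not pass (limma adjusted p = 0.225), and its 95% interval ran from -0.30 to 0.02.

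Oas1d, known for expression in growing oocytes and for lacking synthetase activity, could be read only together with Oas1e. The shared probe set gave 14.22, 14.11, 14.16 and 14.16 on the wild-type arrays and 14.18, 14.20, 14.04 and 14.13 on the knockout arrays, and the groups overlapped. Its log2 difference was -0.02 ± 0.0676 (SE, n = 4 and 4, limma adjusted p = 0.881), with a 95% interval of -0.17 to 0.13. The probe set listed for Oas1e alone read 14.04, 13.85, 14.03 and 14.17 on the wild-type arrays and 14.14, 14.27, 13.75 and 14.05 on the knockout arrays. Its difference was 0.03 ± 0.118 (limma adjusted p = 0.906), with an interval of -0.23 to 0.29, and the sign turned under quantile normalisation. Only 0.0888% of all probe sets had a higher mean signal than the shared one, and the highest single signal in the table was 14.9. Whether these probes were near saturation, and how the signal divides between the copies, was not tested.

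The remaining members had overlapping groups. Oas1a, an active synthetase induced by interferon, read 7.82, 8.08, 7.62 and 8.09 on the wild-type arrays and 7.43, 7.93, 7.86 and 7.83 on the knockout arrays. Oas2, which carries a duplicated synthetase domain, read 6.95, 7.03, 7.40 and 7.15 on the wild-type arrays and 7.05, 7.39, 7.42 and 7.22 on the knockout arrays. Oasl1, which has ubiquitin-like repeats and is known to hold back translation of Irf7 mRNA, read 8.86, 8.53, 8.64 and 8.72 on the wild-type arrays and 8.48, 8.93, 8.62 and 8.54 on the knockout arrays. For each of these genes at most 1 of 4 knockout arrays lay above all wild-type arrays, and at most 1 lay below them. Oasl2, a relative with ubiquitin-like repeats that retains synthetase activity, read 4.34 to 4.67 in wild type and 4.34 to 4.72 in knockout, around the Y-linked median. Together with Oas1e, these 5 members had log2 differences between -0.14 and 0.14 and limma adjusted p between 0.494 and 0.906 (n = 4 and 4). Their 95% intervals reached from -0.45 to 0.40, so that changes beyond 1.37-fold lower (Oas1a) or 1.32-fold higher (Oas2) lay outside them.

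**Figure D2:**
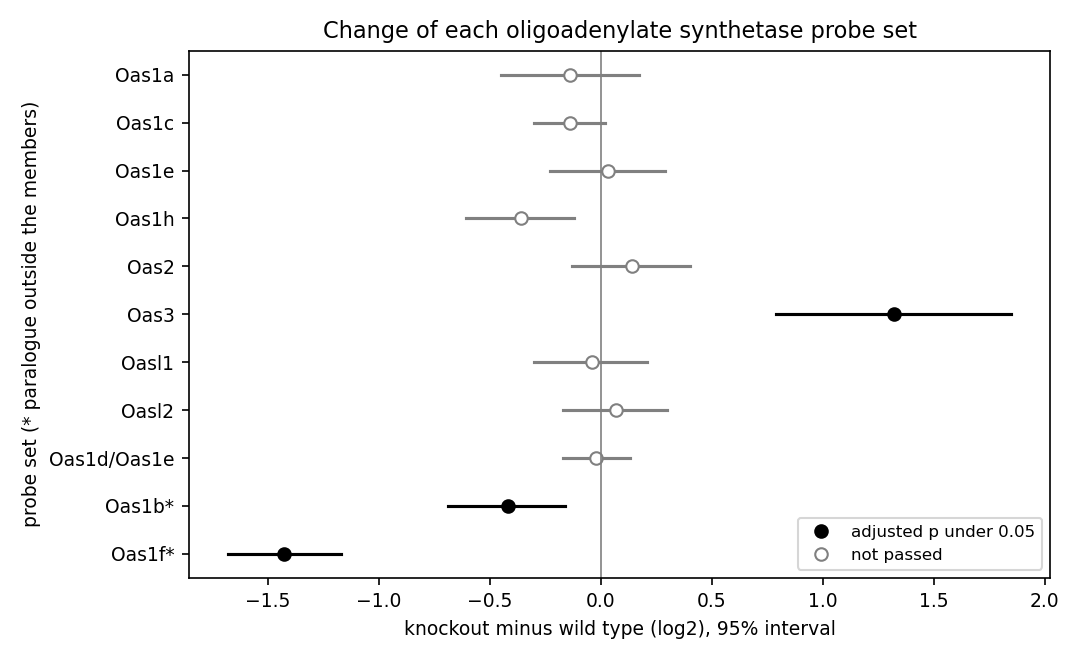
Knockout minus wild-type log2 difference of each oligoadenylate synthetase probe set, with its 95% interval from limma, where filled points passed at an adjusted p under 0.05. Oas3 (1.32) is the point that passed on the upper side, and the paralogues Oas1b (-0.42) and Oas1f (-1.43) passed on the lower side.

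Paralogues of the same cluster that are not among the members moved the other way from Oas3. Oas1f fell from 9.98, 9.61, 9.99 and 9.79 on the wild-type arrays to 8.64, 8.28, 8.44 and 8.30 on the knockout arrays, with no overlap. The log2 difference was -1.43 ± 0.114 (SE, n = 4 and 4, limma adjusted p = 5.70e-05), which is 2.69-fold lower with a 95% interval of 2.25-fold to 3.21-fold. Oas1b, which RefSeq lists as a transcribed pseudogene in its C57BL/6J assembly and which is known for flavivirus resistance in other strains, fell from 9.25 ± 0.0918 to 8.82 ± 0.241 (log2 -0.42, limma adjusted p = 0.0368). The call of Oas1b ended without any of the wild-type arrays and without knockout array 1 or 4 (adjusted p 0.0539 to 0.0970), and in 3 of 9 other settings (0.0502 to 0.114). Oas1g had no probe set listed. Cross-hybridisation between these related copies was not tested.

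Oas1f and Oas1h lie side by side in the cluster. Both were lower in knockout, and their upstream windows are shown because their log2 differences were unlike (-1.43 and -0.36). Over the 28 pairs of family windows, theirs was the second most alike after Oas1a and Oas1g (85.3% identity), with 73.4% identity in a global alignment, while the other pairs had 48.7% or less. Neither window held a match to the motifs given above, so all letters are in lower case.
Oas1f promoter, chr5:120847117-120847416, plus strand: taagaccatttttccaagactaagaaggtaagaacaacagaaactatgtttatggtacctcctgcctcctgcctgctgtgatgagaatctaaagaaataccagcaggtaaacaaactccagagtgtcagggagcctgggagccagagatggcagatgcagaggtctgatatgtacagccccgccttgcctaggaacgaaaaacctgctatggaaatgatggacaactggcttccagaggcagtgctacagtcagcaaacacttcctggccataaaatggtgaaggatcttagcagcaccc
Oas1h promoter, chr5:120861172-120861471, plus strand: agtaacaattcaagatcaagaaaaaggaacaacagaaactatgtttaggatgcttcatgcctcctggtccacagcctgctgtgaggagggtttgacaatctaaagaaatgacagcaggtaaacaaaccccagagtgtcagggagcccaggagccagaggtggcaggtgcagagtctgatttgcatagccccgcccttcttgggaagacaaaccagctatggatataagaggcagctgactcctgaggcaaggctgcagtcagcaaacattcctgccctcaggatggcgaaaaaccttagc
On the within-array scale, Oas1f minus Oas1h was -2.50 to -2.06 in wild type and -3.63 to -2.89 in knockout, so the groups did not overlap. The mean of this quantity was -1.06 in knockout relative to wild type, and its exact two-sided permutation p was 0.0286, the lowest possible with 4 arrays a group. The pair was chosen after the values had been seen, so this p is not independent evidence. The wild-type means were 9.84 for Oas1f and 12.11 for Oas1h. Whether these unlike signal levels affect the difference was not tested.

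Of 17 markers of cumulus and granulosa cells, the somatic cells around the oocyte, 9 fell and 0 rose (0 also in limma at an unadjusted p under 0.05). The shares over all genes were 12.8% and 8.18%. Among the markers that fell were Nr5a2, a nuclear receptor, by 0.44 and Greb1 by 0.68 on the log2 scale. Nr5a2 did not pass when its probe sets were averaged (limma adjusted p = 0.0750). The largest falls were those of Cyp11a1 (log2 difference -1.57) and Inhbb (-1.18). The mean level of the 17 markers was 8.28 to 8.63 per array in wild type and 7.71 to 8.17 in knockout. Among the 8 markers that did not pass, Foxl2 read 7.77 and 7.76 and Amh 7.28 and 7.26. In bulk RNA, fewer cells of a type and less RNA per cell cannot be told apart. Whether these marker signals came from somatic cells or from the oocytes was not tested. Of 10 markers of theca, stroma and vessels, 2 fell and 0 rose, with 4 lower and 1 higher in limma at an unadjusted p under 0.05. Those that fell were the endothelial receptors Tek, by 0.78, and Kdr, by 0.54 on the log2 scale. The vessel markers Pecam1 (7.36 and 7.05) and Vwf (6.50 and 5.84) were lower at an unadjusted p under 0.05 without passing. Acta2 (6.95 and 7.21) was higher in limma at an unadjusted p under 0.05 without passing. The endothelial marker Cdh5 read 4.98 and 4.91, near the Y-linked median, and did not pass. The collagen Col1a1 read 6.42 and 6.50. The mean level of this list was 6.70 to 6.92 per array in wild type and 6.42 to 6.71 in knockout. The part of somatic cells in the lower signals of Oas1f, Oas1b and Oas1h was not tested.

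All members lie on chromosome 5, Oasl1 and Oasl2 at one site and the others at a second. Up to 5 neighbours on each side of the 2 sites were read for comparison, of which 10 had a probe set of their own. Sppl3, a membrane protease beyond Oasl1, fell from 9.83 to 9.52 (limma adjusted p = 0.0221), and the 9 others did not pass. That is 1 of 10 neighbours, while 12.8% of all genes fell. Oas2, the neighbour of Oas3, differed by 0.14 ± 0.118 (SE), and Dtx1, the gene next to Oas2, by 0.11 ± 0.0967. Sppl3 did not pass under cyclic loess or quantile normalisation, when its probe sets were averaged, or without knockout array 1 or 3 or wild-type array 2 or 4 (limma adjusted p 0.0557 to 0.640).

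**Figure D3:**
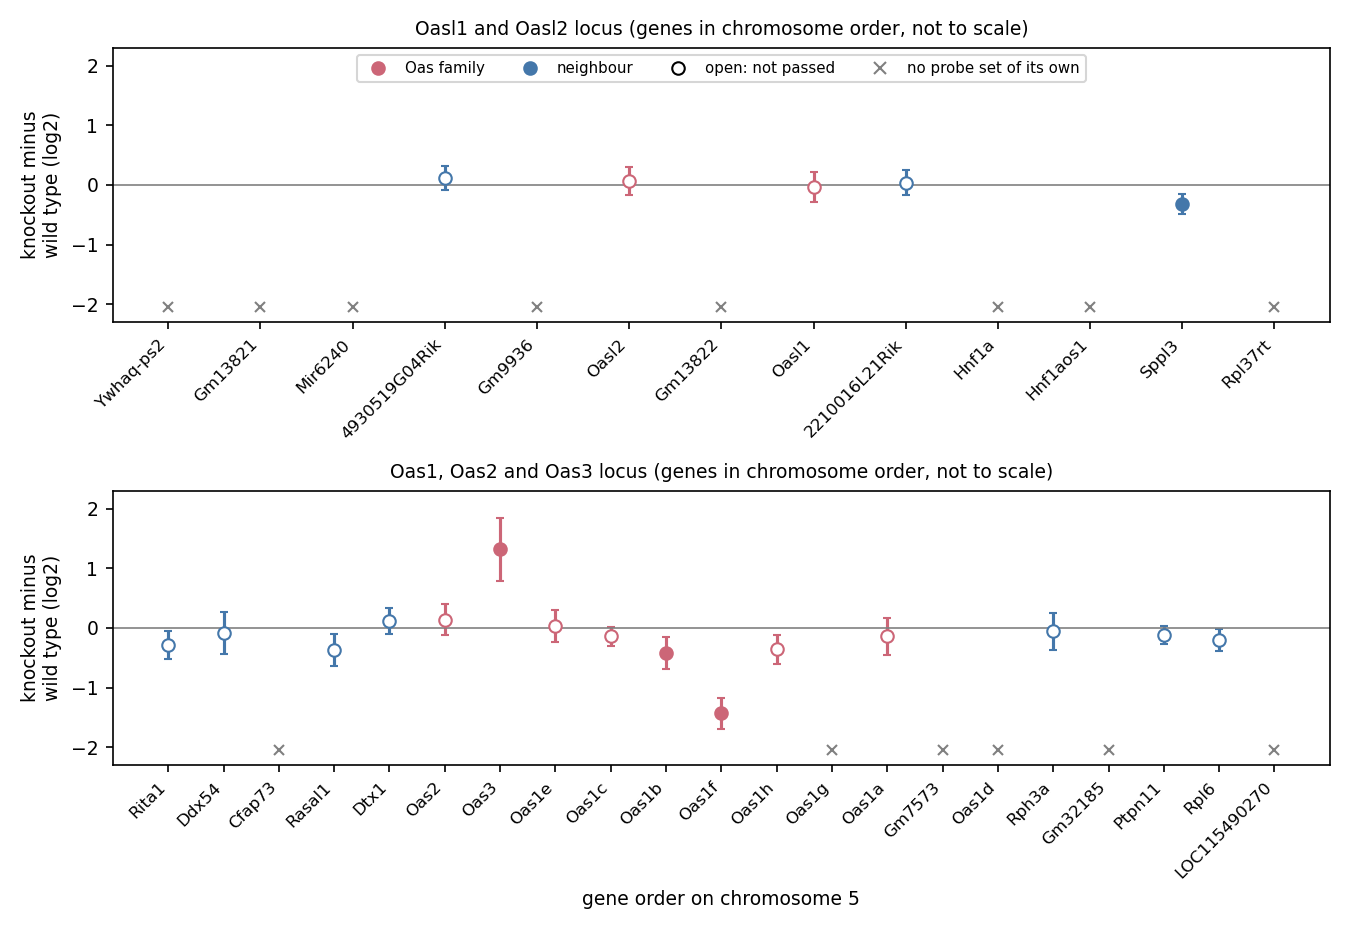
Knockout minus wild-type log2 difference with its 95% interval for genes in chromosome order at both Oas sites, where open points did not pass and crosses have no probe set of their own. Oas3 (1.32) and Oas1f (-1.43) lie in opposite directions within the same cluster, and the neighbours lie between -0.37 and 0.11.

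Other genes listed for the 2-5A pathway did not pass. Abce1, an ATPase that recycles ribosomes, read 7.58 ± 0.481 and 8.26 ± 0.255 in its brightest probe set (log2 difference 0.68 ± 0.224, limma adjusted p = 0.0697, n = 4 and 4), with a 95% interval of 0.18 to 1.18. Its other probe sets differed by 0.44 and -0.04, the second of them at 3.29 and 3.25, below the Y-linked median of 4.63. Pde12, a phosphodiesterase that degrades 2-5A, differed by 0.22 ± 0.138 in its brightest probe set and by 0.34 and -0.26 in the others, and Akap7, a protein kinase A anchor with a 2-5A phosphodiesterase domain, by 0.05 ± 0.0714 and 0.08 ± 0.078. Of 14 measured nucleotidyltransferase relatives, a group that shares the catalytic fold, 2 rose and 2 fell, against 8.18% and 12.8% of all genes. Cgas, the DNA sensor that makes cyclic GMP-AMP, rose 1.37-fold and Strbp, an RNA-binding protein of the same superfamily, 1.22-fold, while the poly(A) polymerases Papola and Papolg fell by 0.47 and 0.35 on the log2 scale. The call of Strbp ended without knockout or wild-type array 4 (limma adjusted p 0.0575 and 0.0563), that of Papola without wild-type array 1 or 4 (up to 0.0528), and that of Papolg under cyclic loess (0.0627) and when probe sets were averaged (0.155).

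Few other genes of the interferon system rose. Of 38 interferon-stimulated genes outside the family, 1 rose and 9 fell, with a median log2 difference of -0.04, while 8.18% of all genes rose and 12.8% fell. Trim30a, a TRIM protein, rose from 9.59 ± 0.657 to 10.92 ± 0.184 or 2.51-fold, and Ddx58, the sensor RIG-I, fell by 0.93 and B2m, the light chain of class I molecules, by 0.89. In 17 of the 38 the mean signal lay below the 90th percentile of the Y-linked probe sets. Of 22 genes that signal to or from interferon, 0 rose and 4 fell at limma adjusted p under 0.05 (2 were higher at an unadjusted p under 0.05), the largest fall being Tlr3, an endosomal sensor of double-stranded RNA, from 9.02 ± 0.505 to 7.66 ± 0.575. The kinase Jak1 fell by 0.46. These lists were chosen with earlier results of these data known, and no set test was made.

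**Figure D4:**
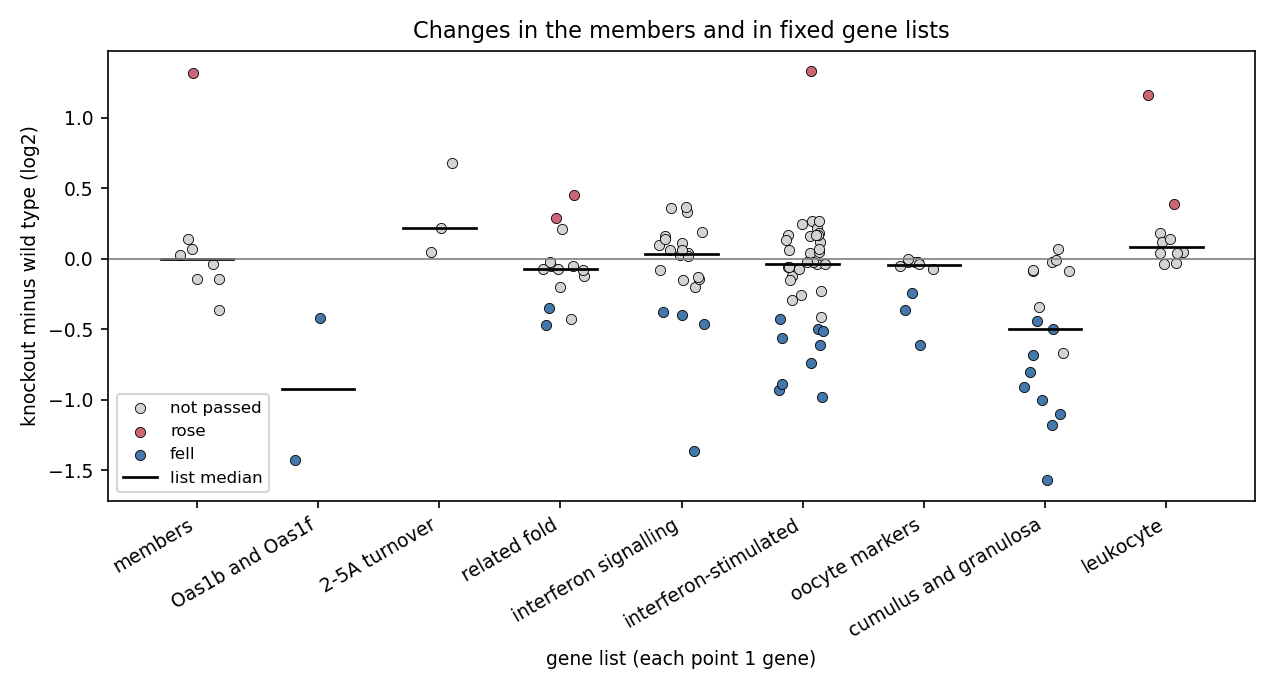
Knockout minus wild-type log2 difference of each gene in the members and in fixed lists, 1 point per gene represented by its brightest probe set, with the list median as a bar. Of the 8 members 1 rose (8.18% of all genes), while 9 of 38 interferon-stimulated genes and 9 of 17 cumulus and granulosa markers fell (12.8% of all genes).

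The genes whose centred signals followed Oas3 most closely over the 8 arrays were Lrguk, 1700080O16Rik and Hhat, a palmitoyltransferase of Hedgehog proteins. Their root-mean-square differences from Oas3 were 0.163, 0.197 and 0.230 on the log2 scale. They were 2.28-fold, 2.68-fold and 2.26-fold higher in knockout. Because they were chosen by likeness to Oas3 over both genotypes, a rise near that of Oas3 follows from the choice and is not a separate result.

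**Figure D5:**
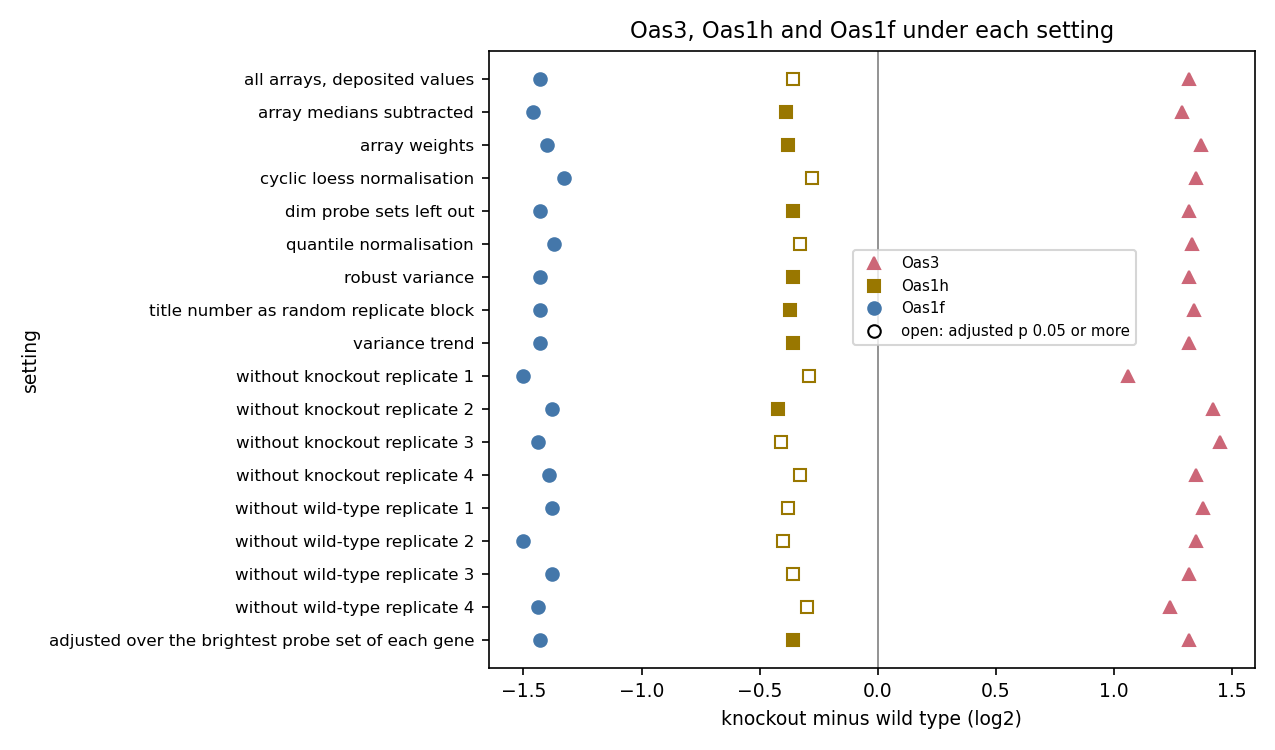
Knockout minus wild-type log2 difference of Oas3, Oas1h and Oas1f with all arrays and under each other setting, where open symbols had an adjusted p of 0.05 or more. Oas3 stays between 1.06 and 1.45 and Oas1f between -1.50 and -1.33, all passing, while Oas1h lies between -0.42 and -0.28 on both sides of the threshold.

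Oas3 passed in all 17 other settings, at limma adjusted p between 0.00106 and 0.0162. Within the title numbers that hold both genotypes, Oas3 was 0.84 higher in knockout for number 24 and 1.15 higher for number 27, Oas1h differed by -0.14 and -0.34, and Oas1f by -1.71 and -1.30. Wild-type arrays 3 and 4 carry number 28, and knockout arrays 1 and 3 carry 21 and 25. These numbers occur in only 1 genotype each. What the title numbers stand for is not given in the labels.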

How the data were processed

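Oocyte RNA went through repeated linear amplification before biotin labelling, per the labels' protocols. The authors deposited log2 signals, 1 per probe set and array. Background correction and scaling across arrays were by RMA, run with Partek, as far as the submitters' processing notes name tools; versions are not given in the sources used here. Low signals can be compressed by RMA, so folds of dim genes may be understated, which was not tested here. The table had 45101 probe sets, 64 of them controls, 0 missing values and 0 columns of other samples. Of the 45037 others, 34945 had 1 gene symbol in the platform annotation, updated by gene identifier through RefSeq (GRCm38.p6), 932 had several and 9160 none. The build behind the array design is not given in the sources used here.

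limma 3.58.1 in R 4.3.3 (lmFit, eBayes) was fitted on the deposited log2 values of all 45037 probe sets, knockout minus wild type, without covariates, with Benjamini-Hochberg adjustment over all of them and a threshold of 0.05, and was tested on simulated data. "Rose" and "fell" refer to it, and SEs are moderated. Single values were also compared by an exact two-sided permutation test over 70 arrangements. A gene in a list was its brightest probe set with 1 symbol. Named were every member and paralogue probe set, the genes of 2-5A turnover, in each other list at most 2 genes per direction with the lowest p, and the 3 genes closest to Oas3. Ooep, Zp3, Ptprc, Cd3e, Adgre1, Foxl2, Amh, Cyp11a1, Inhbb, Pecam1, Vwf, Cdh5, Acta2, Col1a1 and Dtx1 were named outside this rule. They were named after their values were seen. One gene of this pathway is not reported here. The members and lists were chosen with earlier results of these data known. Alternatives were quantile, median and cyclic loess scaling, a filter on dim probe sets (mean log2 of 5.83 or less, the 40th percentile), other variance models, array weights, a random block for the first title number, averaging all probe sets per gene and leaving out each array. Adjustment over 1 probe set per gene was added after seeing the data. Each mouse is a separate sample per the labels, and precision is limited by having 4 arrays per group.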

Additional observations from a re-analysis of the deposited data

How the results depend on the processing

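The count of members that rose stayed at 1 in all 17 alternatives. The count that fell was 0 with all arrays and the deposited values. It was 1, which was Oas1h, after subtracting array medians, with array weights, without dim probe sets, with robust variance, with a variance trend, with the title number as a random replicate block (Oas1h log2 difference -0.37, adjusted p = 0.0489) and when adjusted over 1 probe set per gene, and 0 to 1 when arrays were left out in turn. The block's consensus correlation was -0.0778, the labels do not say that the number pairs mice, and the block changed the call of Oas1h only among the members. Differences near 0 changed sign without passing. That of Oas1e (0.03) became -0.0021 under quantile normalisation, and ranged from -0.04 to 0.13 without single arrays, among them -4.2e-05 without knockout array 1 and -0.03 without wild-type array 2. That of Oasl1 (-0.04) became 0.04 under cyclic loess and 0.01 under quantile normalisation and without knockout array 1 or wild-type array 1, with a range of -0.14 to 0.01 without single arrays. That of the shared Oas1d and Oas1e probe set (-0.02) became 0.03 under cyclic loess and 0.01 without knockout array 3, with a range of -0.04 to 0.01. Oasl2 was left out by the dim filter. No scaling moved the median of all probe sets by over 0.1.

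Without single arrays, the relatives of the same fold that rose numbered 1 to 2 and those that fell 1 to 3, and 1 fell under cyclic loess and when probe sets were averaged per gene. Interferon signalling genes that fell numbered 2 to 4 (2 without wild-type array 1 or 3 or knockout array 2 or 3). Interferon-stimulated genes that rose numbered 1 to 2 (2 without wild-type array 3), and 6 to 9 fell. Cumulus and granulosa markers that fell numbered 5 to 9 (5 without knockout array 3), and leukocyte markers that rose 1 to 2 (2 without wild-type array 3 or knockout array 2). Of the neighbours 0 to 2 fell without single arrays, 2 after subtracting array medians, and 0 under cyclic loess, under quantile normalisation and when probe sets were averaged per gene. The cause of these changes was not tested.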
